A study of Mus musculus with 8 samples.

Results

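Open chromatin was compared between 7 sorted stromal populations of mouse bone marrow by ATAC-seq, an assay that reads where a transposase, Tn5, can insert adapters into accessible DNA. The regions described here were called as open in ATAC2, ATAC5 and ATAC6 and in none of ATAC1, ATAC3, ATAC4 and ATAC7. Peaks of all libraries were merged wherever they shared at least 1 base, and a merged region was chosen by its called peaks, when it held a peak of each of the 3 libraries and no peak of the other 4. This rule found 3374 regions, called members below, among 50683 merged regions (6.66%). By the labels, the donors of all libraries were C57BL/6J mice of wild-type genotype, 6 weeks after birth, the material was bone marrow stromal cells, and a single Input library was the control for every peak list. Each title had 1 library, so no value below has a replicate and every difference is between libraries. The labels do not link a title to one of the sorted populations, which the study took from cells with the surface markers Sca-1 and PDGFR-α after exclusion of endothelial and blood cells (CD31, CD45, Ter119).

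Open regions of a genome include promoters and distal elements. Promoters carry the start sites of genes, and many are open in most cell types, while distal elements, many of them enhancers, are more often open only in some cell types and are bound there by the transcription factors of that cell. AP-1 factors, dimers of Fos and Jun proteins, bind distal elements in fibroblasts and other stromal cells. RUNX factors act in bone, cartilage and blood, and GATA factors are best known from blood, endothelium and endoderm. In bone marrow stroma such elements lie near genes of the matrix, of adhesion and of the skeletal lineages.

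The sequences of some of the best-ranked distal members show what was searched for in the whole set. Members were ordered by the mean over the 3 libraries of the rank of the best peak, as a percent of list length, and distal means that the centre lay over 1000 bases from every annotated start site. Of the best 8 distal members, the 3 with an AP-1 motif (TGANTCA) and the 2 with a RUNX motif (TGTGGT, or ACCACA on the other strand) are given, in 300 bases about the centre. A region lower in the order, in an intron of Ets1, was added after its sequence was seen, because it holds both motifs. Letters are those of the plus strand of build mm9 (NCBIM37), 5′ to 3′, and capitals mark the AP-1 and RUNX motifs.

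Igsf8 intron, chr1:174238134-174238433, AP-1: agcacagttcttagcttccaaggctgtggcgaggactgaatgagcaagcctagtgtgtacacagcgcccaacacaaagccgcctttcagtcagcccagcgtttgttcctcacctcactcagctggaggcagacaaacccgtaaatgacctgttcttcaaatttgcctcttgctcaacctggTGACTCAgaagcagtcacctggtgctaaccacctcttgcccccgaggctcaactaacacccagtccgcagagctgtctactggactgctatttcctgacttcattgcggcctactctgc
Rap2b region, chr3:61148011-61148310, 2 AP-1 motifs: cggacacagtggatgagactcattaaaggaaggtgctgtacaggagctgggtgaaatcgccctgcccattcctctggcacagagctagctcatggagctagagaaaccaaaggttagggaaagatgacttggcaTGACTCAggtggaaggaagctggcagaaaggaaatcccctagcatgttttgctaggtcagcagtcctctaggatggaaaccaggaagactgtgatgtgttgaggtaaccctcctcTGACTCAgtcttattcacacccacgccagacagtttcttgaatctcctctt
Camk2d intron, chr3:126398351-126398650, AP-1: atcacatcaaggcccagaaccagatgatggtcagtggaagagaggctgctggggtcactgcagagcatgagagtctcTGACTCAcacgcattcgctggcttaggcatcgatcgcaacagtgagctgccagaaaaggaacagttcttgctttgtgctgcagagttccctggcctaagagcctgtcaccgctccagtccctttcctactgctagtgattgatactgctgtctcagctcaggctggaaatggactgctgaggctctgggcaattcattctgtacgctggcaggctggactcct
Lmcd1 region, chr6:112160438-112160737, RUNX: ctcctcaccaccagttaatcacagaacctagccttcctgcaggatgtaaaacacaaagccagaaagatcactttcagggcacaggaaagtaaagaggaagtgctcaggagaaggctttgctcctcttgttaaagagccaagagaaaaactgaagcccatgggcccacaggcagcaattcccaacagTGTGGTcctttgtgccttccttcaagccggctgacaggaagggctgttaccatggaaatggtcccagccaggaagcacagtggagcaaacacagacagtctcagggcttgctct
Gm17734 and Opa1 region, chr16:29754948-29755247, RUNX: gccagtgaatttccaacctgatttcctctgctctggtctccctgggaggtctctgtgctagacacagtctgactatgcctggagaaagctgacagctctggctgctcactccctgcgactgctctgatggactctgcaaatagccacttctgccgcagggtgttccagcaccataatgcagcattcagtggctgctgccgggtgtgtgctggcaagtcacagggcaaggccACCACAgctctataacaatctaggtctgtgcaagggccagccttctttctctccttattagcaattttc
Ets1 intron, chr9:32538349-32538648, AP-1 and RUNX: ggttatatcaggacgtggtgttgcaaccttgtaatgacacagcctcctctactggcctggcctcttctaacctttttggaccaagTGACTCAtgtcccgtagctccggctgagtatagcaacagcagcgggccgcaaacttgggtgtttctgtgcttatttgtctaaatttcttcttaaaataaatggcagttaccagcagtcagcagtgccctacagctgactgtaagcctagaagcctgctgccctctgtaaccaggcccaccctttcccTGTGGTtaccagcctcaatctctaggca

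The regions shown for the AP-1 motif lay in introns or between genes. The region in Igsf8, which encodes a membrane partner of tetraspanins, spanned chr1:174238165-174238404 and lay 3618 bases from the start site. It held 385 reads in ATAC2, 237 in ATAC5 and 195 in ATAC6, against 28, 35 and 27 Input reads. The region at chr3:61148068-61148255, between genes and 20268 bases from the start site of Rap2b, a small GTPase of the Ras family, held 323, 184 and 254 reads in the same order, against 9 or 10 Input reads, and its fold over Input was 51.0, 35.0 and 39.95. Its fold was the highest of the regions shown. The region in Camk2d, a subunit of a calcium-dependent kinase, was at chr3:126398407-126398596 with 293, 193 and 181 reads, and an ATAC1 peak lay 944 bases away.

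The 2 regions shown for the RUNX motif lay between genes. The one at chr6:112160431-112160745, 63164 bases from the start site of Lmcd1, a LIM-domain protein, held 528 reads in ATAC2, 374 in ATAC5 and 281 in ATAC6 against 16 to 25 Input reads. The one at chr16:29755023-29755174, 138387 bases from Opa1, a mitochondrial fusion GTPase, held 339, 215 and 336 reads. The Ets1 region at chr9:32538361-32538637, in an intron of this ETS-family transcription factor, held 410, 198 and 249 reads against 25 Input reads in each. In each of the 6 regions ATAC2 had the most reads, by a narrow margin over ATAC6 in the region of Opa1. Reads here and below are as deposited, not scaled between the libraries.

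The other 3 of the best 8 distal members held neither motif. The first in order, chr17:39983932-39984048, lay 1782 bases from AY036118 and had 1234, 1441 and 1732 library reads, but also 581 to 656 Input reads, so that its fold was 3.33 in ATAC2, 3.76 in ATAC5 and 4.69 in ATAC6. The second, chr4:114452496-114452777, held 481, 246 and 451 reads and was 41691 bases from Gm12830. The seventh, in an intron of BC017612 at chr9:15312223-15312381, held 403, 191 and 289 reads, and its window had a TEAD motif (ACATTCC). Apart from the first, the best 8 had folds between 7.50 and 51.0.

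The set was the largest among the combinations of 3 libraries. The 5880 regions called in exactly 3 libraries fell into 35 sets, and 57.4% of them were members. The next set, ATAC1 with ATAC5 and ATAC6, had 439 regions, the third had 295 and the smallest 3. Of 16822 regions called in ATAC2, ATAC5 and ATAC6, whatever else, the members were 20.1%. Adding ATAC1 alone to the 3 libraries gave 957 regions, adding ATAC7 gave 527, ATAC3 gave 153 and ATAC4 gave 93. The 4 excluded libraries shared 55 regions that were called in no other library. These counts follow from the peak lists that chose the members and are a description. The 3 libraries also had the longest lists, with 32280, 31479 and 28969 peaks in ATAC2, ATAC5 and ATAC6 against 15188 to 24510 in the others. With the best 15188 peaks of each library, 433 regions were called in exactly these 3, again the most of the 35 sets, before ATAC1 with ATAC3 and ATAC4 (179).

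**Figure D1:**
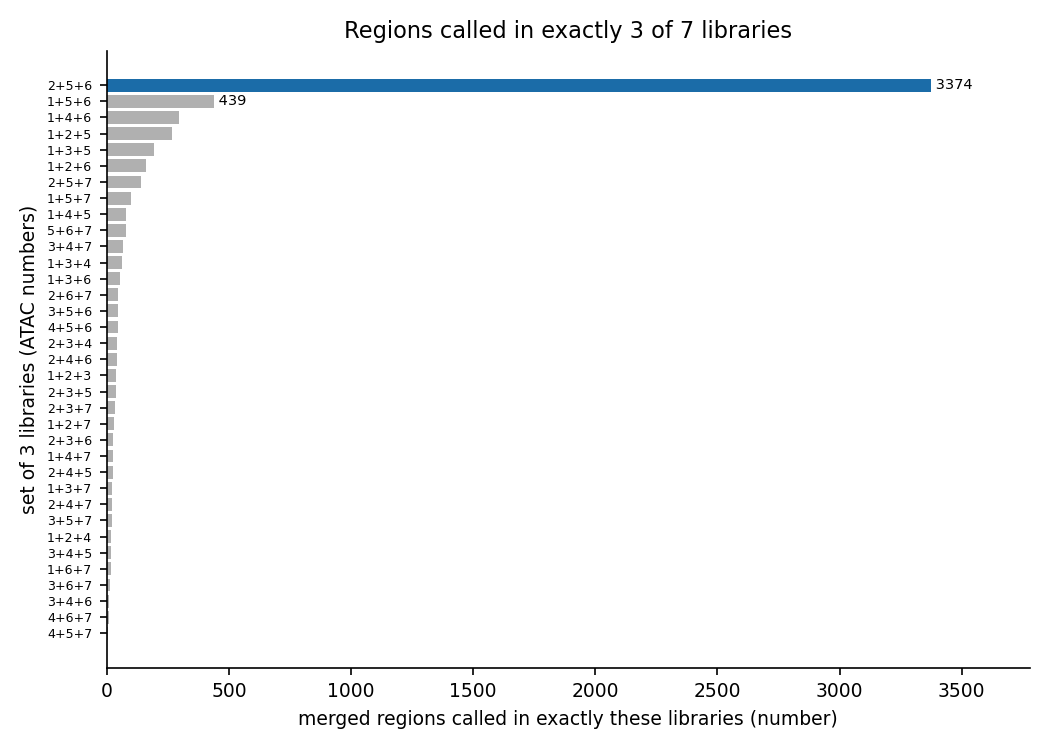
Number of merged regions (horizontal axis) called in exactly 3 of the 7 libraries, for each of the 35 sets of 3 (vertical axis, by ATAC number). The blue bar is the set described here with 3374 regions, and the next has 439.

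The members were peaks of middle and lower rank. They held 3602 peaks of ATAC2, 3566 of ATAC5 and 3579 of ATAC6, which were 11.2%, 11.3% and 12.4% of the lists. The best peak of a member had a median of 101 reads in ATAC2 (26 to 1549), 89 in ATAC5 (26 to 2713) and 86 in ATAC6 (29 to 2951), against medians of 111, 124 and 122 reads over the whole lists. Input gave a median of 16, 15 and 15 reads. The rank of the best peak, from 0% for the top of a list to 100% for its end, had a median of 54.4% in ATAC2, 62.9% in ATAC5 and 64.5% in ATAC6. The better-ranked 50% of the list held 42.9% of members in ATAC2, 25.8% in ATAC5 and 24.8% in ATAC6, and the best 10% of the list held 10, 2 and 2 members. The best rank of a member was in ATAC2 for 1812 members (53.7%), in ATAC5 for 950 (28.2%) and in ATAC6 for 612 (18.1%), in lists of unequal length. By the authors' fold over Input, a scaled ratio of library to Input reads, the highest value was in ATAC5 for 1361 members (40.3%), in ATAC2 for 1347 (39.9%) and in ATAC6 for 666 (19.7%). This order turned with the scaling, since with folds divided by the median fold of the regions called in all libraries, an alternative chosen after seeing the data, ATAC2 had the highest value in 2861 members (84.8%), ATAC5 in 319 (9.45%) and ATAC6 in 194 (5.75%).

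**Figure D2:**
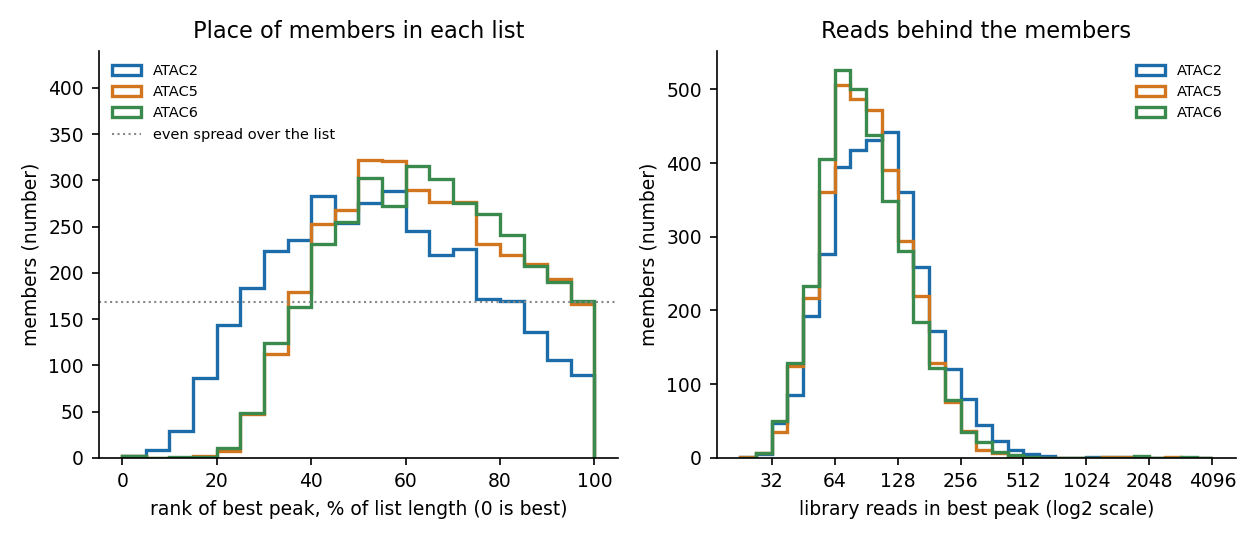
Left, number of members by the rank of their best peak as a percent of the list of ATAC2, ATAC5 or ATAC6 (0 is the top, bins of 5%), with a dotted line for an even spread. Right, number of members by the reads of that peak (log2 axis). The ATAC2 ranks (median 54.4%) lie nearer to the top than those of ATAC5 (62.9%) and ATAC6 (64.5%), and most members have under 256 reads.

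The overlap of the 3 libraries within a member is largely fixed by the merging, and is given as a description. In 2899 members (85.9%) each library had 1 peak, and in 2750 (81.5%) the 3 best peaks had at least 1 base in common. The centres of the 3 peaks lay within 100 bases of each other in 1859 members (55.1%). The median width of a merged region was 307 bases (27 to 1775), and that of single peaks was 165.5 to 167 bases. The fold over Input had a median of 10.6 in ATAC2, 10.3 in ATAC5 and 9.58 in ATAC6. Between ATAC2 and ATAC5 the folds were at least 2-fold apart in 201 members (5.96%, against 9.11% of all regions called in both), between ATAC2 and ATAC6 in 144 (4.27%, against 8.34%) and between ATAC5 and ATAC6 in 164 (4.86%, against 3.73%). These counts depended on the scaling. With the scaled folds they were 763 (22.6%, against 7.92% of all regions called in both), 638 (18.9%, against 10.2%) and 144 (4.27%, against 3.11%) in the same order of pairs. For both pairs with ATAC2 the members were thus below the background share by the fold as deposited and above it by the scaled fold, and for ATAC5 and ATAC6 they were above it by both. Across members, Pearson's r of log2 fold was 0.826 for ATAC2 and ATAC5, 0.874 for ATAC2 and ATAC6 and 0.836 for ATAC5 and ATAC6, but the folds share 1 Input library. On log2 reads per base, without Input, r was 0.336, 0.499 and 0.426. The folds come from the same peaks as the rule, so nothing is read from these counts about the set.

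Where a library had no peak, its signal did not pass the authors' limit, and the tables hold no reads of it there. In bulk libraries a region open in few cells and one weakly open in many cannot be told apart. Peaks of an excluded library lay close to some members. The distance to the nearest one had a median of 18526.5 bases, was at most 10 bases in 19 members (0.563%), at most 100 in 71 (2.10%) and at most 1000 in 312 (9.25%). Of these 312, the nearest peak was of ATAC1 in 135, of ATAC7 in 84, of ATAC3 in 55 and of ATAC4 in 38. Just outside the rule were 1730 regions with a peak of 1 excluded library, and in 37 of them the overlap with that library was at most 10 bases (median 125.5). Such a neighbour lay within 1000 bases of 118 of 659 promoter members (17.9%) and of 194 of 2715 distal members (7.15%).

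The members were mostly distal. A centre lay within 1000 bases of a start site in 659 members (19.5%, 95% Wilson interval 18.2 to 20.9, which covers counting error only), while this held for 40% of all merged regions. The share was 85.7% (84.9 to 86.4) in regions called in all 7 libraries, and 41.5% (38.4 to 44.6) in those called in ATAC1 beside the 3 libraries. Among regions called in exactly 2 of the 3 libraries, it was 13.5% (12.2 to 15.0) for ATAC2 and ATAC6, 19.5% (17.7 to 21.4) for ATAC2 and ATAC5 and 32.1% (29.5 to 34.9) for ATAC5 and ATAC6. The interval of the members thus lay below that of the whole and of the ATAC5 and ATAC6 pair, above that of ATAC2 and ATAC6, and within that of ATAC2 and ATAC5. Regions called in 1 library alone had 17.5% (16.6 to 18.5) for ATAC2, 26.5% for ATAC5, 29.1% for ATAC6 and 26.7% for ATAC1. A share below 40% was thus not particular to the members. Position was not used to choose members. With the best 15188 peaks of each library, 29.6% of the 433 regions then called in exactly the 3 libraries were at promoters, against 57.5% of all regions. The part of rank and list length in the promoter share was not tested.

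Introns held 1648 of the centres (48.8%, against 41.9% of all regions), and 1406 lay between genes (41.7%, against 40.2%). Coding exons held 85 (2.52%, against 4.66%), and other exons, which are untranslated or belong to noncoding transcripts, held 235 (6.97%, against 13.3%). A start site was over 10000 bases away from 1791 members (53.1%, against 35.8%) and over 100000 bases away from 216 (6.40%, against 4.19%). The share beyond 10000 bases was 57.3% for exactly ATAC2 and ATAC6, 50.7% for ATAC2 and ATAC5 and 37.3% for ATAC5 and ATAC6. Regions called in 1 library alone had 55.9% for ATAC2, 45.2% for ATAC5 and 40.4% for ATAC6. The distal members had a median distance of 18016 bases, all distal regions one of 14326 bases, and distal regions called in all 7 libraries one of 8744 bases. The members lay on every chromosome, from 4.41% of the merged regions of chromosome 11 to 8.09% of those of chromosome 6, apart from Y, where 1 of 49 regions was a member.

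The AP-1 motif was the most frequent of the 23 motifs searched in distal members. It was in 1130 of 2715 windows of 300 bases (41.6%, 39.8 to 43.5), against 30.0% of the windows of all distal regions. In windows of the same length centred 1000 bases to either side of the members it was in 8.58%, so the share in members was 4.85 times that of their flanks, and 3.32 times in all distal regions. Among other sets of distal regions the share was 40.7% (38.5 to 42.9) for ATAC2 and ATAC6, 36.8% (34.3 to 39.4) for ATAC2 and ATAC5, 28.4% for ATAC5 and ATAC6 and 24.4% for all 7 libraries. Regions called in 1 library alone had 35.2% (34.0 to 36.6) for ATAC2, 29.3% for ATAC5, 23.3% for ATAC6 and 15.2% for ATAC1. The share in members thus lay above those of all distal regions, of the regions called in ATAC5 and ATAC6 and of those called in ATAC1 as well (27.9%, 24.3 to 31.7), but its interval overlapped that of ATAC2 and ATAC6, so the 2 sets cannot be told apart by it.

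The AP-1 sites lay at the centre of the members. In bins of 50 bases, 10.8% of distal members had a site just before the centre, against a median of 1.47% per bin beyond 500 bases. For all distal regions the highest bin reached 7.68%, and for regions called in ATAC1 alone 4.11%. Of 1394 sites in the windows, 1079 (77.4%) had the letters TGAGTCA or TGACTCA, and 315 (22.6%) had TGAATCA or TGATTCA. One site was found in 889 windows (32.7%), 2 in 219 (8.07%) and 3 or more in 22 (0.810%), while 1585 (58.4%) had none.

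**Figure D3:**
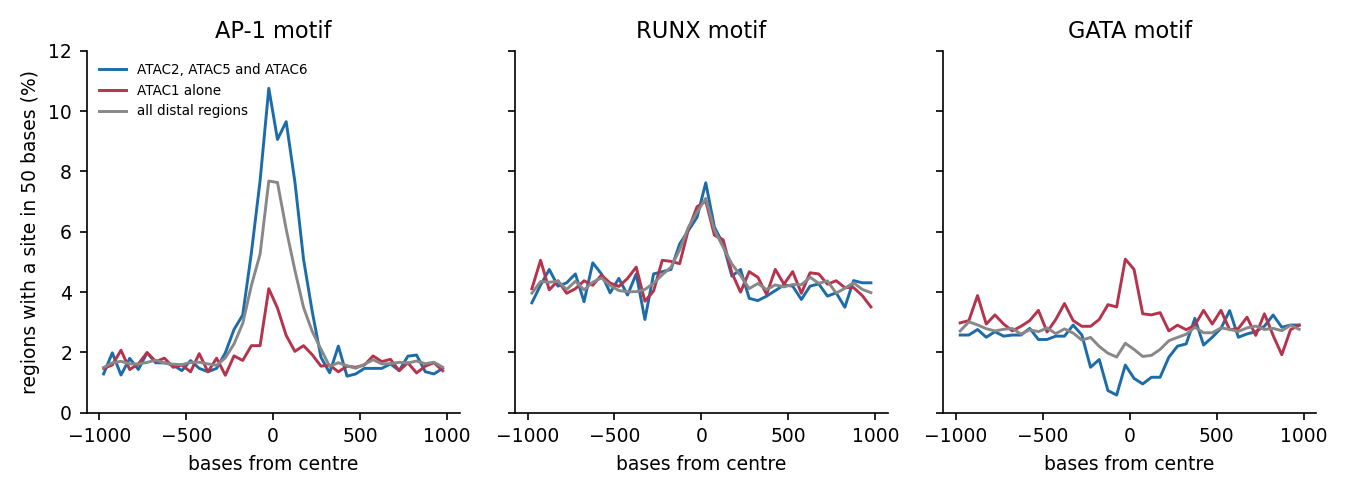
Percent of distal regions with a site of the AP-1, RUNX or GATA motif in each bin of 50 bases (vertical axis) by distance from the centre in bases (horizontal axis), for the members (blue), regions called in ATAC1 alone (red) and all distal regions (grey). The AP-1 line of the members rises to 10.8% at the centre, and the RUNX lines of the 3 sets lie close together. The GATA lines of the members and, less so, of all distal regions dip at the centre, while that of the ATAC1 regions rises.

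The AP-1 share is given by rank, base composition and distance, because each can move with a motif count. In 4 equal groups of the distal members by mean rank the share was 44.5% (40.8 to 48.2) in the best-ranked, 39.8% and 40.6% in the middle ones, and 41.7% (38.0 to 45.4) in the last. The median GC content was 50.3% in the members and 49.7% in all distal regions. Split at the limits that divide all distal regions into 3 parts by GC content, the share was 42.3%, 45.6% and 37.1% in members of low, middle and high GC content, against 32.7%, 33.0% and 24.3% in all distal regions. With the start site 1000 to 10000 bases away it was 39.0% against 26.0%, at 10000 to 100000 bases 42.9% against 32.2%, and beyond 100000 bases 44.0% (37.5 to 50.6) against 37.5% (35.5 to 39.6). The members were above all distal regions in each of these strata of GC content and distance, with overlapping intervals only beyond 100000 bases. Among the 659 promoter members the motif was in 17.1% (14.5 to 20.2), against 7.51% of all promoter regions.

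**Figure D4:**
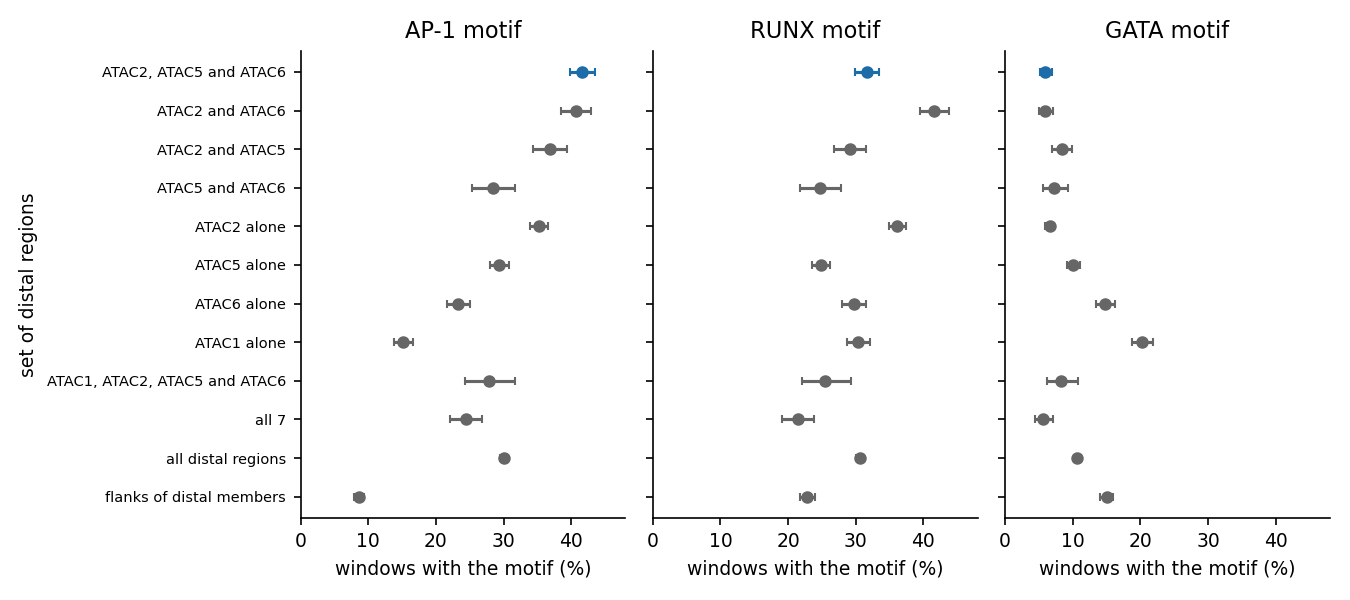
Percent of 300-base windows with the AP-1, RUNX or GATA motif (horizontal axes) in sets of distal regions and in the flanks of the members (vertical axis), with 95% Wilson intervals as bars. The members (blue) have 41.6% for AP-1, 31.6% for RUNX and 5.97% for GATA, and for AP-1 they lie beside the regions called in exactly ATAC2 and ATAC6.

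The RUNX motif was in 859 distal members (31.6%, 29.9 to 33.4), close to the 30.6% of all distal regions and above the 22.8% (21.7 to 24.0) of the flanks. Regions called in exactly ATAC2 and ATAC6 had a higher share of 41.6% (39.5 to 43.9), those of ATAC2 and ATAC5 had 29.1% (26.8 to 31.6), and those of ATAC5 and ATAC6 had 24.7% (21.8 to 27.8). Regions called in ATAC2 alone had 36.1% (34.9 to 37.5), above the members. Within the members it was lower at lower rank, from 36.4% (32.8 to 40.1) in the best of these 4 groups to 28.1% (24.9 to 31.6) in the last. It was in 363 of 1130 members with the AP-1 motif (32.1%, 29.5 to 34.9) and in 496 of 1585 without it (31.3%, 29.1 to 33.6), with overlapping intervals.

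The GATA motif (AGATAA, or TTATCT on the other strand) was in 5.97% of distal members (5.14 to 6.92), below the 10.7% of all distal regions and the 15.0% (14.05 to 15.9) of the members' own flanks. All distal regions were also below their own flanks, which had 15.3%. A low share was not particular to the members. Regions called in exactly ATAC2 and ATAC6 had 5.95% (4.98 to 7.09), ATAC5 and ATAC6 7.29% (5.67 to 9.33), ATAC2 and ATAC5 8.35%, ATAC2 alone 6.60% (5.96 to 7.30), and those called in all 7 libraries 5.63% (4.47 to 7.08). Shares were higher in regions called in one of the other libraries alone, with 10.1% for ATAC5, 14.8% (13.4 to 16.2) for ATAC6 and 20.3% (18.8 to 21.8) for ATAC1. In the central 100 bases 1.36% of members had a site per bin, against 2.69% beyond 500 bases, and in the regions of ATAC1 alone 4.92% against 2.94%. The flanks had a lower GC content, with a median of 46.3%, and the part of base composition in the GATA shares was not tested.

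Most other motifs were at shares close to those of all distal regions, and the rare SMAD and CREB motifs stood further from them. TEAD factors, which act with YAP and TAZ, had their motif in 5.49% of distal members against 5.2% of all distal regions. The forkhead motif (FOX, TGTTTAC) was in 6.52% (5.65 to 7.51) against 5.18%, the GC box (GGGCGG) of Sp factors in 11.3% against 13.2%, and the core of the CTCF motif (AGGGGGC or AGGTGGC) in 13.4% against 14.7%. Of the 23 motifs, 3 were over 1.2 times as frequent in members as in all distal regions, namely AP-1, FOX and the SMAD motif (GTCTAGAC, 0.589% against 0.405%). The 2 that were less frequent by that factor were GATA and CREB (TGACGTCA, 0.516% against 0.740%). SMAD was in only 16 windows (0.363 to 0.955) and CREB in 14 (0.307 to 0.864). Both intervals include the share of all distal regions, so these 2 motifs cannot be told apart from it. AP-1 was the only motif whose share in members exceeded that of their flanks by over 3 times.

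Distal members were assigned to the protein-coding gene with the nearest start site within 100000 bases, which does not show that the gene is controlled by the region. They reached 1775 genes, 7.93% of those annotated, of which 1388 had 1 member, 287 had 2, 62 had 3 and 38 had 4 or more. Of all assigned distal regions, 8.71% were members, and each list below is read against that share. Among the genes with the most members were Trib1 with 9, Iqsec1 with 8, and Tbc1d1, Ctdp1 and 2010111I01Rik with 6 each. In this order they had 25, 28, 22, 22 and 32 distal regions. Single genes, here and within the lists, were picked for their number of members, so their counts are no result about them.

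Trib1, a pseudokinase that directs C/EBP factors to degradation, had 9 members among 25 distal regions. They spanned 185711 bases of chromosome 15 (59380514 to 59566224) on both sides of the gene (59479905 to 59488105), from 16988 to 99307 bases from its start site. The 5 farthest upstream lay in introns of a neighbouring gene, Nsmce2 at the outermost, and the other 4 between genes. Their reads ranged from 48 to 264 in ATAC2, from 62 to 164 in ATAC5 and from 45 to 231 in ATAC6. The outermost upstream region (59380514 to 59380683) had 264, 71 and 231 reads, and the nearest region downstream (59497078 to 59497314) had 48, 84 and 45. A RUNX motif was in 5 of the 9 windows and an AP-1 motif in 2.

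All 8 members of Iqsec1, an exchange factor for Arf GTPases, were in its introns (chromosome 6, 90650003 to 90751081), out of 28 distal regions. An AP-1 motif was in 5 of their windows. Reads ranged from 65 to 228 in ATAC2, 42 to 188 in ATAC5 and 58 to 160 in ATAC6. Tbc1d1, a Rab GTPase-activating protein, had 5 intronic members and 1 between genes, and the strongest of them (chromosome 5, 64715935 to 64716148) had 277, 297 and 271 reads against 39 to 44 Input reads. Of the members of Ctdp1, a phosphatase of RNA polymerase II, 5 of 6 lay between genes, 60570 to 84270 bases from its start site.

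The lists of marrow and stromal genes mostly had intervals that include the background share. Of 19 lists, the interval of 1 lay wholly above 8.71%, that of pericytes and smooth muscle with 6 members among 25 distal regions (24.0%, 11.5 to 43.4). Of these 6, 3 were among the 10 distal regions of Cspg4, which encodes the proteoglycan NG2. The others were 1 each at Heyl, a Notch target, Ednra, the endothelin receptor, and Acta2, the smooth muscle actin. The Heyl region (chromosome 4, 122903224 to 122903455) was read 234, 284 and 198 times in ATAC2, ATAC5 and ATAC6 against 18 to 22 Input reads. The Acta2 region, in an intron at chromosome 19, 34318716 to 34318797, had 61, 51 and 42 reads against 9 to 12, each below the median of the members. The count of this list is small, and with 19 lists looked at, 1 interval apart from the background is no result about it.

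Matrix and surface genes had shares above the background, with intervals that include it. Collagens and fibrous matrix had 16 members of 122 distal regions (13.1%, 8.24 to 20.2), with 4 at Col6a3 and 3 at Col6a2, chains of the collagen VI microfibril, 2 at Col5a1 and 1 at Col1a2. The 4 at Col6a3, out of 11 distal regions, had 69 to 143 reads in ATAC2, and 3 of them held an AP-1 motif. The best Col6a2 region (chromosome 10, 76096909 to 76097174) had 207, 179 and 179 reads. Stromal surface markers had 12 of 91 (13.2%, 7.71 to 21.6). The best of the 2 at Nt5e, which encodes the ectonucleotidase CD73, lay at chromosome 9, 88191225 to 88191606, with 512 reads in ATAC2, 239 in ATAC5 and 235 in ATAC6 against 12 to 24 Input reads. Of the regions named for the lists it had the most ATAC2 reads, with folds of 33.7, 24.1 and 30.8. The integrin genes Itgav and Itgb1 had 2 and 1.

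**Figure D5:**
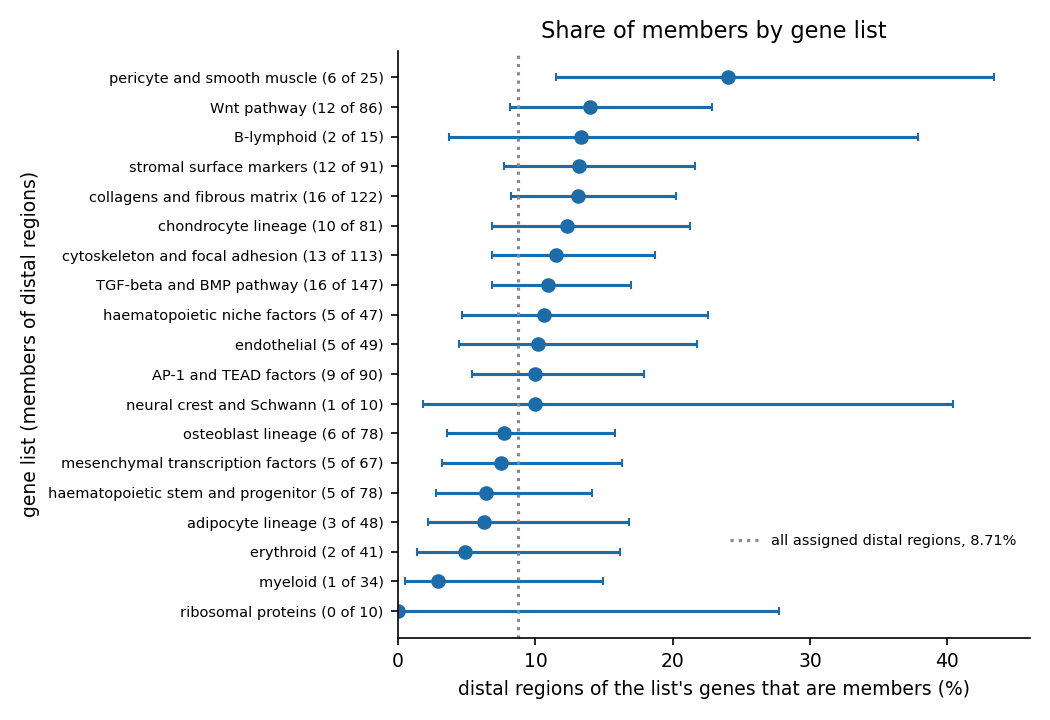
Percent of the distal regions assigned to the genes of each list that are members (horizontal axis), with 95% Wilson intervals as bars, and the list with its counts (vertical axis). The dotted line is the 8.71% over all assigned distal regions, and 18 of 19 intervals include it.

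Signalling lists gave like shares. The Wnt pathway had 12 of 86 (14%, 8.17 to 22.8), with 2 at the ligand Wnt2b and 1 each at the coreceptor Lrp5 and at the nuclear effectors Lef1 and Tcf7l2. The Lef1 region in an intron (chromosome 3, 130881739 to 130882087) had 275 reads in ATAC2, 61 in ATAC5 and 125 in ATAC6. The TGF-beta and BMP pathway had 16 of 147 (10.9%, 6.81 to 16.9), with 3 at the type I receptor Acvr1, 2 at the ligand Bmp7, 1 at the ligand Bmp6 and 2 at the inhibitor Smad7. The Bmp7 region in an intron (chromosome 2, 172731831 to 172732108) held both AP-1 and RUNX motifs and had 341, 112 and 205 reads. The Bmp6 region (chromosome 13, 38412305 to 38412510) also held both and had 195, 199 and 217 reads.

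Among factors that bind the motifs above, AP-1 and TEAD genes had 9 of 90 (10%, 5.35 to 17.9). Of these 9, 5 were among the 11 distal regions of Wwtr1, which encodes the TEAD coactivator TAZ. All 5 lay in introns, 1557 to 65292 bases from the nearest protein-coding start site, that of Wwtr1. They had 76 to 175 reads in ATAC2, 64 to 142 in ATAC5 and 49 to 96 in ATAC6. Fos, Atf3 and Tead3 had 1 each. The cytoskeleton and focal adhesion list had 13 of 113 (11.5%, 6.85 to 18.7), among them 3 at Palld, an actin-associated protein, 2 at Amotl2 and 2 at Cyr61. The best Palld region, in an intron (chromosome 8, 64234111 to 64234428), had 109 reads in ATAC2, 137 in ATAC5 and 69 in ATAC6 and held an AP-1 motif.

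Lineage genes had shares on either side of the background. The chondrocyte list had 10 of 81 (12.3%, 6.85 to 21.3), including 3 at Sox5, a cartilage transcription factor, 2 at Col11a1, and 1 each at the matrix genes Acan and Hapln1. The Col11a1 region between genes (chromosome 3, 113672878 to 113673484) had 290, 122 and 247 reads. The osteoblast list had 6 of 78 (7.69%, 3.57 to 15.8), with 1 at Runx2, the bone master regulator, 1523 bases from a start site (chromosome 17, 44874759 to 44875481) and read 139, 114 and 116 times, and 1 each at Spp1, Sparc and Col1a2. The adipocyte list had 3 of 48 (6.25%, 2.15 to 16.8), at Fabp5, Zfp521 and Klf15. Mesenchymal transcription factors had 5 of 67 (7.46%, 3.23 to 16.3), 1 each at Nfia, Meis1, Twist2 and Osr2 among them. Haematopoietic niche factors had 5 of 47 (10.6%, 4.63 to 22.6). Of these, the Igf1 region in an intron (chromosome 10, 87348285 to 87348704) had 213, 235 and 118 reads against 5 to 9 Input reads, with folds of 37.4, 44.7 and 37.1.

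Genes of other marrow cells had shares on either side of 8.71%. Myeloid genes had 1 of 34 (2.94%, 0.521 to 14.9), at Sfpi1, which encodes PU.1, with 36, 51 and 53 reads. Erythroid genes had 2 of 41 (4.88%, 1.35 to 16.1), both at Ank1, the ankyrin of the red cell membrane, and haematopoietic stem and progenitor genes had 5 of 78 (6.41%, 2.77 to 14.1), with 2 at Mecom. B-lymphoid genes had 2 of 15 (13.3%, 3.74 to 37.9), at Ebf1 and Irf4, and Ebf1 also stands on the niche list, since stromal cells express it. Endothelial genes had 5 of 49 (10.2%, 4.44 to 21.8), of which 3 were at the ETS factor Erg, and the best Erg region (chromosome 16, 95794835 to 95794984) had 205, 198 and 169 reads. Neural crest and Schwann genes had 1 of 10, at Mitf, and ribosomal protein genes 0 of 10. These intervals all include 8.71%, so a lower share near genes of blood cells was not detectable with these numbers of regions.

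The promoter members were led by a few peaks of high rank. At Ing1, a chromatin reader and tumour suppressor, the region chr8:11555798-11556167 lay 84 bases from a start site and had 1549, 2713 and 2951 reads in ATAC2, ATAC5 and ATAC6, with ranks 302, 231 and 755, against 207 to 258 Input reads, so that its fold was 11.8, 20.6 and 18.01. At Picalm, a clathrin assembly protein, chr7:97278209-97278591 had 1195, 1694 and 2010 reads and ranks 875, 1418 and 904, against 135 to 160 Input reads, with folds of 13.98, 19.5 and 19.8. No other member had a mean rank in the best 15% of the lists. Both had a peak of an excluded library near by, an ATAC1 peak 59 bases from the Picalm region and an ATAC3 peak 1233 bases from the Ing1 region. The next promoter members had fewer reads. The region near Pvrl2, which encodes the adhesion molecule nectin-2, had 158, 217 and 232 reads and folds of 7.80, 10.3 and 9.87, with an ATAC1 peak 383 bases away, and the one at Nebl, an actin-binding protein, had 248, 226 and 276 reads and folds of 10.9, 9.21 and 9.24, with the nearest excluded peak 10466 bases away. The promoter members had a median GC content of 59.7%, against 62.7% in all promoter regions, and a GC box in 46% (42.2 to 49.8), against 57.7%.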

How the data were processed

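Chromatin accessibility was measured in 7 ATAC-seq libraries with 1 shared Input library. Per the study's methods the authors used bowtie to align reads to mm9 and then CisGenome, in two-sample mode with Input as the control, to call peaks per library, at a p-value limit of 1e-05 and an FDR under 0.01. Read shifting and duplicate removal are not given in the sources used here, and either could move peak edges or read numbers. The deposited tables have no header. For each peak the deposited tables hold a count of library reads and a count of Input reads, both whole numbers, over a wider outer region. The authors' fold is a ratio of scaled library reads to Input reads plus 0.01. The ranking statistic of the deposited tables is a signal column that sets each peak's rank. Total depth per library is unknown, since the tables hold reads in peaks only.

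The 164103 peaks were merged when they shared at least 1 base. Where a library had several peaks in a region, the best-ranked one gave its values. Start sites and gene models were those of GENCODE vM1 on NCBIM37, which is build mm9, and 0 peaks ran past a chromosome end. Regions with the centre at most 1000 bases from a start site were taken as promoters and the others as distal. Motifs were searched as exact letters on both strands in 300 bases about the centre. The letters of the AP-1, RUNX and GATA motifs do not contain each other. Of the listed gene symbols, 9 entries were matched through RefSeq synonyms and 2 were not matched. Shares have 95% Wilson intervals, and intervals cover counting error only, since neighbouring regions are not independent. No test was made, because each title had 1 library.

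The members, gene lists and motifs were chosen with earlier results of these data known. Regions named are the best 8 distal and best 4 promoter members by mean relative rank, the 6 genes with the most distal members, and up to 4 genes per list. Some items that this rule names are not reported here. Alternatives covered merging, peak bounds, fold, list length, Input, promoter and motif windows and gene distance. The merging and motif steps were tested on simulated data. Versions were pandas 2.3.3, numpy 2.4.6, scipy 1.17.1 and matplotlib 3.10.9 under Python 3.11.15.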

Additional observations from a re-analysis of the deposited data

How the results depend on the processing

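No paired analysis was possible because no group had a second library. The number of members was within 1.5 times of 3374 under merging within 500 bases, outer regions, a fold of at least 5, omission of peaks with 0 Input reads and, an alternative chosen after seeing the data, omission of members with a peak of an excluded library within 1000 bases. It fell to 433 with equal peak numbers and to 2087 when every pair of the 3 peaks had to share 50% of the shorter peak. The second keeps fewer regions by construction. For the first, each list was cut to the length of the shortest list. The best peak lay within that length for 1286 members in ATAC2 (38.1%), 762 in ATAC5 (22.6%) and 978 in ATAC6 (29%). Most members were thus lost by the cut itself, and how many other regions it brought into the set was not tested. The promoter share was 17.6% with merging within 500 bases and with outer regions, 26.0% with a fold of at least 5, 29.6% with equal peak numbers, 17.7% with the 50% overlap and without the members near an excluded peak, 15.1% and 26.6% with windows of 500 and 2500 bases, and 17.5% with protein-coding start sites only. It stayed below the share of all regions in the settings where both were computed, 39.3% with a fold of at least 5 and 57.5% with equal peak numbers. The AP-1 share was 44.6% with equal peak numbers, against 31.1% of all distal regions in that setting, and 32.0% and 47.1% in windows of 200 and 400 bases. The RUNX share in these windows was 23.5% and 37.4%. With a fold of at least 5, the ATAC6 centre or a distal limit of 2500 bases, both motif shares stayed within their intervals. Protein-coding genes with a distal member numbered 256 with equal peak numbers and 1526 to 1973 with other gene distances. Of 76 list shares under 4 alternatives, 14 left the interval of the reported share, and these were all at equal peak numbers, where members are fewer.

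Members at least 2-fold apart between ATAC2 and ATAC5 numbered 381 by library reads per base without Input (11.3%, against 3.59% of all regions called in both), 763 with folds divided by the median fold of regions called in all libraries (22.6%, against 7.92%) and 90 of 2337 with at least 10 Input reads (3.85%, against 8.61%). For ATAC2 and ATAC6 the counts were 310 (9.19%, against 5.03%), 638 (18.9%, against 10.2%) and 48 of 2328 (2.06%, against 8.05%). For ATAC5 and ATAC6 they were 56 by reads per base (1.66%, against 1.48%) and 57 of 2284 with at least 10 Input reads (2.50%, against 2.48%). The limit on Input reads leaves fewer members by construction. The cause of the changes by scaling was not tested. Few reads limit the comparison of single members, since the median member had 86 to 101 library reads and 15 or 16 Input reads.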

Other observations

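The distance from a distal member to the next one had a median of 97906 bases, and 369 of 2715 (13.6%) had another within 10000 bases. Distal regions called in all 7 libraries had a median of 230777 bases and 13.2% within that distance, and those called in ATAC2 alone had 61474 bases and 20.8%, but these sets differ in size, which alone moves such distances.

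Of the other motifs, that of C/EBP factors (TTGCNNAA) was in 13% of distal members against 14% of all distal regions, and that of EBF factors (CCCNNGGG) in 9.98% against 10.8%. The homeodomain letters (TAATTA) were in 6.11% of distal members against 5.96% of all distal regions, and in 7.70% and 7.71% of their respective flanks.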
